A study of Mus musculus with 3 samples.

Results

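Bcl6, Prdm1, which encodes Blimp-1, Maf, Ascl2, Bach2, Tcf7, Lef1, Pou2af1, Tox and Tox2 are transcription factors and cofactors known from follicular T cells and the cells they diverge from. They are 10 of the 32285 genes counted and were chosen by name, with no threshold on a measured value. Their unique molecular identifiers (UMIs), each of which stands for 1 captured RNA molecule, were followed in cells that the authors annotated as follicular helper T cells (Tfh) or follicular regulatory T cells (Tfr), by library and by the authors' numbered subclusters.

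Tfh cells help B cells in the germinal centre, and Tfr cells carry Foxp3 and restrain that help. Bcl6, a zinc-finger repressor, is required for both classes, and Blimp-1, a repressor of effector T cells, effector regulatory T cells and plasma cells, opposes it: each protein is known to repress the gene of the other. TCF-1 (from Tcf7) and Lef1 act early in the Tfh programme, while Ascl2, Maf, Tox and Tox2 support parts of it such as Cxcr5, Il21 and chromatin opening, and Bach2 holds back effector genes, Prdm1 among them.

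The sorted cells came from spleen (the harvest protocol names spleens and lymph nodes) 14 days after immunization with OVA-liposome, which all mice received. The groups are Wild-Type (WT) and Siglec-G B-cell knockout (BKO), and the study asked how this inhibitory receptor of B cells bears on T cell help. The deletion concerns B cells, so the T cells here carry no check of it. The sources used here name no strain, age, driver of the deletion or number of mice per library. WT is given as 2 samples, of which the first shares the label batch 1 with BKO and the second carries batch 2.

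All 5554 barcodes of the first WT sample were among the 5721 of the second, with UMI totals that correlated at r = 0.997, so both hold the same cells and are called WT run 1 and WT run 2. Each genotype is thus 1 library: no difference below has a replicate check, no test was possible, and the 95% intervals given are exact ones for the error of counting alone. The annotated Tfh cells numbered 3727 and 3668 in the WT runs and 6389 in BKO, and the Tfr cells 1416, 1449 and 2044, with medians of 4413 to 8407 UMIs per cell. Of the WT cells with an annotation in each run, 10.4% changed class from one run to the other. The WT counts carry a Cell Ranger 7.0.1 header and the BKO counts a Cell Ranger 4 header, and the sources used here do not say if introns were counted.

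The class names were checked against markers. A Foxp3 UMI was present in 100% of Tfr cells of each library. Since the class holds no cell without a Foxp3 UMI, Foxp3 is not counted here as an independent check of it. It was also present in 0.402% (WT run 1), 9.95% (WT run 2) and 0.908% (BKO) of the Tfh cells. Tfh subcluster 1 had Ikzf2, a factor of regulatory T cells, at 3342 to 3471 CPM (counts of a gene per 1000000 UMIs of the class or subcluster), a level found in Tfr subclusters, where it stood between 2113 and 3622 CPM. All 6 Tfh markers were detected in both classes, and the summed B cell markers stood at 8.49 to 12.4 CPM. Plasma cell markers summed to 0.481 to 11.7 CPM and myeloid markers to 3.97 to 8.22 CPM. Markers of CD8 T and NK cells, Eomes among them, summed to 336 and 317 CPM in Tfh cells of the WT runs and 58.8 CPM in those of BKO. They were highest in Tfh subcluster 5, at 2319 CPM and 2120 CPM in the WT runs, where Cd8a had 0 UMIs. Tfh subcluster 6 had them at 822 and 748 CPM in the WT runs and 718 CPM in BKO, and Tfh subcluster 8 at 547 and 551 CPM in the WT runs.

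The 10 genes include close relatives, Tcf7 with Lef1 and Tox with Tox2, so the coding stretches in which each pair is most alike are shown to let a reader see how far their reads can be told apart. Each stretch is 90 bases long, 5′ to 3′ on the coding strand of GENCODE vM21 transcripts (GRCm38, the assembly also called mm10), with the bases that differ from the relative in capitals. That of Tcf7 covers coding bases 577 to 666 of 909 and that of Lef1 bases 904 to 993 of 1191, with 75 of 90 identical.

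Tcf7: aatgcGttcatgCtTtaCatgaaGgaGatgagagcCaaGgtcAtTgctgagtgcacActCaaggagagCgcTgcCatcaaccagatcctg
Lef1: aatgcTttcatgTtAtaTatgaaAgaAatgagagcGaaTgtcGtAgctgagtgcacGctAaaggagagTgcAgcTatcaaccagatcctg
Tox: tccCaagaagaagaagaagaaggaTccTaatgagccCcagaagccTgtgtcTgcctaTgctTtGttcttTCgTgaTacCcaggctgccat
Tox2: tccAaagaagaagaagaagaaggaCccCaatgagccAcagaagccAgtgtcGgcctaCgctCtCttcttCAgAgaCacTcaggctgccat

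The Tox stretch covers coding bases 747 to 836 of 1578 and the Tox2 stretch bases 828 to 917 of 1641, with 76 of 90 identical (84.4%, against 83.3% for Tcf7 and Lef1). Over whole transcripts, 7 of the 10 genes shared no run of 60 bases with any other gene. Maf shared 9 of 8180 such runs, Bach2 8 of 9920 and Lef1 13 of 8896 with genes outside the list. The 3′ assay reads mostly the ends of transcripts, so these stretches show relatedness rather than the bases that were counted.

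Bcl6 (ENSMUSG00000022508, chr16:23965052-23988852, minus strand) was nearly level between the libraries. In Tfh cells it stood at 167 CPM in WT run 1 (interval 161–173), 177 CPM in WT run 2 (172–182) and 183 CPM in BKO (179–187). In Tfr cells it stood at 121 CPM (114–129), 125 CPM (119–131) and 110 CPM (105–116). BKO lay above both runs in Tfh cells and below both in Tfr cells, and the log2 ratio of BKO to the mean of the runs (each CPM plus 0.5) was 0.09 and -0.16. Each cell was also thinned to 2500 UMIs, which matches the UMIs per cell and leaves out shallower cells, so that 3533 and 3612 Tfh cells remained in the WT runs and 6323 in BKO, and 1380, 1447 and 2035 Tfr cells. Among these, 29.3%, 29.9% and 31.2% of Tfh cells and 23.3%, 23.5% and 20.7% of Tfr cells had a Bcl6 UMI.

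Prdm1 (ENSMUSG00000038151, chr10:44437177-44528501, minus strand) was the member with the widest contrast between libraries, in Tfr cells. There it stood at 22.9 CPM in WT run 1 (interval 19.7–26.4), 23.1 CPM in WT run 2 (20.6–25.8) and 55.9 CPM in BKO (52.2–59.8). BKO was 2.40-fold higher than the mean of the runs, a log2 ratio of 1.26, and 1.27 against WT run 1 alone, which shares its batch label. In Tfh cells the values were 12.4 CPM (10.9–14.1), 14.0 CPM (12.7–15.4) and 7.16 CPM (6.39–8.0), a log2 ratio of -0.84, here with BKO below both runs. At 2500 UMIs per cell, 4.71%, 4.49% and 10.1% of Tfr cells and 2.83%, 2.96% and 1.53% of Tfh cells had a Prdm1 UMI. No sorted class is known to lack the gene, so no independent background is given. The subcluster of at least 50 cells with the lowest Prdm1 CPM in each library was Tfh 0, a floor taken from these same data. There, 0.199%, 0.287% and 0.249% of its 1003, 1045 and 1203 thinned cells had a Prdm1 UMI. Before thinning, 0.483%, 0.667% and 1.16% of its 1036, 1049 and 1208 cells had one.

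A gene was called higher or lower by size alone: a mean of at least 20 CPM over the 3 samples, and BKO at least 1.5 times beyond both WT runs. In Tfh cells 9 of the 10 genes reached 20 CPM (Prdm1 did not). Of these 9, Ascl2 was called higher, where 0.396% of the 6559 genes measured were called higher, and 0 were called lower, where 2.45% of all genes were. Ascl2 met the 20 CPM level only through BKO, with a mean of 20.3 CPM and both WT runs under 20 CPM. Its call is thus not independent of that filter. In Tfr cells 9 of 10 again reached the level (Ascl2 did not), 1 was called higher, Prdm1, against 0.887% of 6539 genes, and 1 lower, Bach2, against 2.4%. The median log2 ratio of all genes was -0.10 in Tfh and -0.09 in Tfr cells. All log2 ratios are higher by 0.16 in Tfh and 0.12 in Tfr cells when libraries are scaled by TMM, which turns the share of calls on the higher side from 13.9% to 43.2% in Tfh and from 27.0% to 58.4% in Tfr cells.

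**Figure D1:**
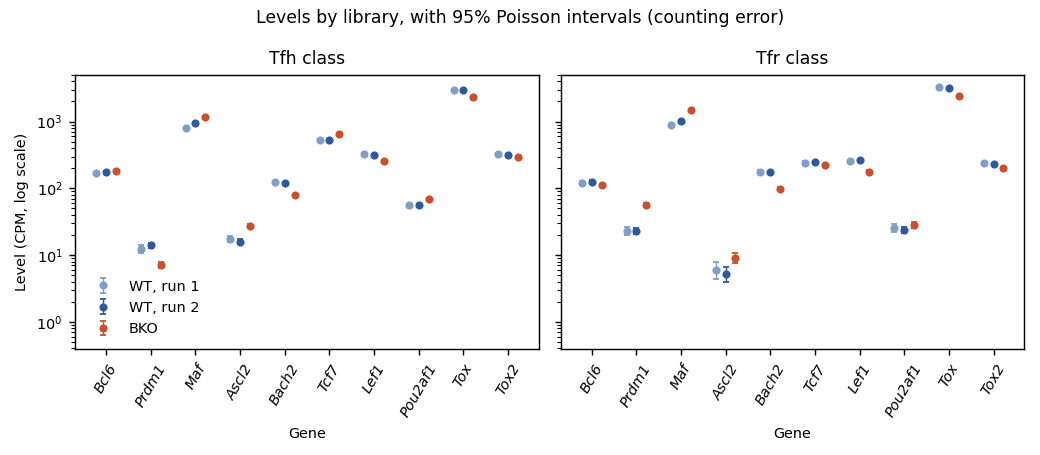
Level of each gene (CPM, log axis) in the Tfh class (left) and Tfr class (right) for WT run 1, WT run 2 and BKO, with exact 95% Poisson intervals. The WT runs lie close together for most genes, BKO lies above both for Maf and Ascl2 and below both for Bach2, Lef1 and Tox in both classes, and Prdm1 lies below the WT runs in Tfh and above them in Tfr cells.

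Ascl2 (ENSMUSG00000009248, chr7:142966829-142969264, minus strand), a basic helix-loop-helix factor that induces Cxcr5, stood in Tfh cells at 17.6 CPM (15.8–19.6), 15.9 CPM (14.5–17.4) and 27.2 CPM (25.7–28.8), a log2 ratio of 0.68. BKO was above both runs with no overlap of the counting intervals, and against WT run 1 alone the ratio was 0.61. The call was lost at a log2 ratio of 0.55 without Tfh subcluster 5, and at 0.58 with thinned cells. In Tfr cells Ascl2 was sparse, at 6.02, 5.17 and 9.03 CPM.

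Maf (ENSMUSG00000055435, chr8:115682942-115707794, minus strand), a factor of Il21 and Il10 transcription, stood at 811, 953 and 1188 CPM in Tfh and at 901, 1035 and 1479 CPM in Tfr cells. The runs of the same WT cells differed from each other by more than counting error for this gene, with intervals of 798 to 824 and 942 to 964 CPM in Tfh cells. BKO lay above both runs in both classes, with log2 ratios of 0.43 and 0.61. The Tfr value passed the size rule against WT run 1 alone (0.72) and with TMM scaling (0.73), not as counted. Tox (ENSMUSG00000041272, chr4:6686353-6991557, minus strand), an HMG-box factor of T cell development and exhaustion, was below both runs in BKO, at 3011, 2976 and 2297 CPM in Tfh and 3256, 3176 and 2390 CPM in Tfr cells. Its relative Tox2 (ENSMUSG00000074607, chr2:163203125-163324170, plus strand) stood at 323, 315 and 299 CPM and at 237, 229 and 203 CPM, and its Tfh log2 ratio of -0.09 turned to 0.07 with TMM scaling. With the running median over intron length described below taken off, the Tox2 ratios were 0.23 in Tfh and 0.13 in Tfr cells.

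Tcf7 (ENSMUSG00000000782, chr11:52252371-52283014, minus strand) and Lef1 (ENSMUSG00000027985, chr3:131110471-131224356, plus strand) moved apart in Tfh cells. Tcf7 stood at 528, 538 and 648 CPM, a log2 ratio of 0.28 with BKO above both runs, and Lef1 at 324, 320 and 257 CPM, a ratio of -0.32 with BKO below both. In Tfr cells Tcf7 stood at 242, 248 and 226 CPM and Lef1 at 258, 266 and 179 CPM (log2 ratios -0.12 and -0.55). Neither gene passed the size rule in either class, and the Tfr ratio of Tcf7 was 0.00 with WT cells of 1 class in both runs and 0.31 with the WT makeup of subclusters. Pou2af1 (ENSMUSG00000032053, chr9:51213708-51240080, plus strand), a coactivator best known from B cells, stood at 55.7, 55.7 and 68.1 CPM in Tfh and at 25.4, 23.9 and 28.4 CPM in Tfr cells.

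Bach2 (ENSMUSG00000040270, chr4:32238804-32586108, plus strand) was the member called lower. In Tfr cells it stood at 177 CPM (168–187), 176 CPM (169–183) and 98.7 CPM (93.7–104), which is 1.79-fold lower in BKO (log2 ratio -0.84, and -0.84 against WT run 1 alone). In Tfh cells it stood at 123, 120 and 80.7 CPM, a log2 ratio of -0.59 that missed the rule as counted and passed it against WT run 1 alone (-0.60). An intronic transcript on the same strand, Bach2it1, and an opposite-strand transcript, Bach2os, overlap the gene, and reads of overlapping genes may be split between them. Pou2af1 also overlaps a measured gene on its own strand, Gm47828. Bcl6, Maf, Tcf7, Lef1 and Tox each overlap a measured gene on the opposite strand.

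The ratios moved with intron length, which is given here as a measured fact whose part in the results was not tested. Introns add up to 337 kb in Bach2, 298 kb in Tox, 118 kb in Tox2, 105 kb in Lef1 and 85.7 kb in Prdm1, and to 28.0 kb or less in the other 5 genes. Over all genes ordered by intron length, the running median of the log2 ratio in Tfh cells was -0.39 at the length of Bach2 and Tox, -0.31 at that of Lef1, -0.01 at that of Bcl6 and 0.19 at that of Ascl2, whose introns add up to 0.813 kb. With this median taken off, the ratios were 0.01 for Tox, -0.01 for Lef1, -0.19 for Bach2 and 0.50 for Ascl2 in Tfh cells, so that Ascl2 was no longer called. In Tfr cells Bach2 stood at -0.43, no longer called, Lef1 at -0.24, Tox at -0.03, and Prdm1 at 1.57.

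**Figure D2:**
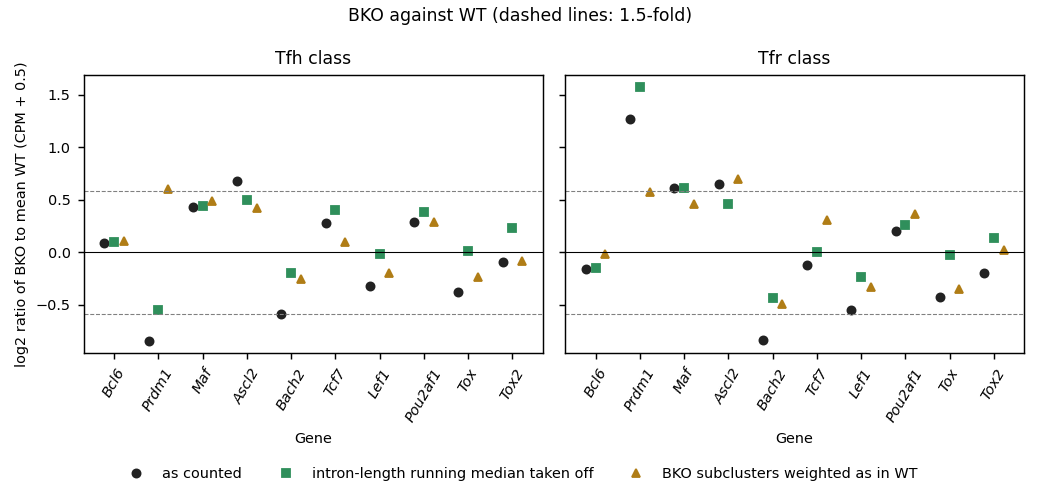
Log2 ratio of BKO to the mean of the WT runs for each gene in Tfh (left) and Tfr cells (right), as counted (circles), with the running median over intron length taken off (squares) and with BKO subclusters weighted by their WT shares (triangles); dashed lines mark 1.5-fold. Maf lies above 0 and Bach2 below 0 under all 3 treatments in both classes, and Tox comes close to 0 with the running median taken off. Prdm1 in Tfh cells lies at -0.84 as counted and at 0.60 with the weighting. The weighting needs 20 cells per subcluster and so leaves out Tfh subcluster 5, with 11 cells in BKO.

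Prdm1 UMIs were concentrated in few subclusters, whose shares of cells differed between the libraries. The authors made the subclusters from the expression of these cells, these 10 genes included, so levels between subclusters are a description. In Tfr cells subcluster 1 had Prdm1 at 94.3 CPM (78.7–112) in WT run 1, 89.2 CPM (77.5–102) in WT run 2 and 132 CPM (122–142) in BKO, and the other Tfr subclusters of at least 50 cells lay between 2.71 and 16.6 CPM. That subcluster held 16.2% and 17.1% of the Tfr cells in the WT runs and 36.3% in BKO, and gave 67.4%, 66.8% and 85.6% of all Prdm1 UMIs of Tfr cells. BKO was above the WT mean in 5 of 5 Tfr subclusters, with log2 ratios from 0.52 (subcluster 1) to 0.86 (subcluster 2), though 4 of the 5 lie under 20 CPM. Without subcluster 1 the Tfr values were 8.92, 9.29 and 12.6 CPM, a log2 ratio of 0.45, and with the BKO subclusters weighted by their WT shares the ratio was 0.57. Both miss the size rule.

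In Tfh cells the library with the lower Prdm1 level was the one with few cells of subcluster 5. This subcluster held 359 and 363 cells of the WT runs and 11 of BKO, had Prdm1 at 76.6 CPM (64.3–90.6) and 80.7 CPM (70.8–91.6) in the runs, and gave 58.4% and 57.0% of their Tfh Prdm1 UMIs. Without it Prdm1 stood at 5.72, 6.68 and 7.08 CPM, and the log2 ratio turned from -0.84 to 0.18. With the BKO subclusters weighted by their WT shares the Prdm1 ratio was 0.60. That weighting took only subclusters of at least 20 cells, so it too leaves out subcluster 5 and is no separate check. The Tfh ratio of Bcl6 without subcluster 5 was -0.02. In BKO the largest part of the Tfh Prdm1 UMIs, 49.8%, lay in subcluster 1, at 25.9 CPM (22.03–30.3) against 9.76 CPM (7.06–13.1) and 12.5 CPM (10.0–15.5) in the WT runs. This is the Tfh subcluster with Ikzf2 at the level of Tfr cells. Among its cells without any Foxp3 UMI, 2.67%, 1.87% and 5.60% had a Prdm1 UMI after thinning.

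The subcluster highest in Prdm1, Tfr 1, was among the lowest in Bcl6 in WT run 2 and in BKO, but the orders were not opposite throughout. In BKO Bcl6 ran from 255 CPM in Tfh subcluster 0 over 235 CPM in Tfh 3 and 223 CPM in Tfr 3 to 211 CPM in Tfh 1, where the intervals of each neighbouring pair overlap. Below them came 6 subclusters between 120 and 147 CPM, whose neighbours again overlap, and then Tfh 4 at 41.1 CPM and Tfr 1 at 35.7 CPM, which overlap with each other. In WT run 2 the order was led by Tfh 3 (271 CPM) and Tfr 3 (249 CPM), and it ended with Tfh 4, Tfr 1 and Tfh 5 at 51.9, 51.2 and 49.6 CPM, which do not differ beyond their intervals. Prdm1 in WT run 2 was led by Tfr 1 (89.2 CPM) and Tfh 5 (80.7 CPM), whose intervals overlap, with all other subclusters at 13.1 CPM or less and Tfh 0 last at 1.21 CPM. In BKO Prdm1 was led by Tfr 1 (132 CPM), and next by value came Tfh 1 (25.9 CPM), which is in the leading group of Bcl6. Tfh 4 was low in Bcl6 without being high in Prdm1, at 12.3 CPM in WT run 2 and 10.1 CPM in BKO. Tfh 6 was low in Prdm1, at 1.64 and 2.14 CPM, with Bcl6 in the middle range, at 105 and 147 CPM.

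**Figure D3:**
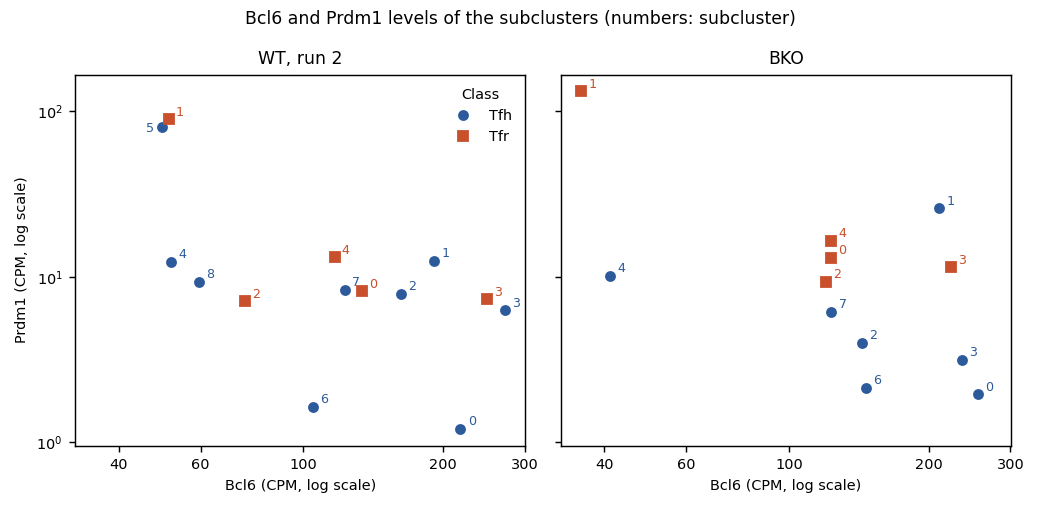
Prdm1 against Bcl6 (both in CPM, log axes) for each subcluster of at least 50 cells, in WT run 2 (left) and BKO (right); circles are Tfh and squares Tfr subclusters, with their numbers. Tfr 1 lies at the upper left in both libraries, joined in WT by Tfh 5, which has no point in BKO because it holds 11 cells there. Tfh 0 and Tfh 3 lie at the lower right. In BKO Tfh 1 comes next to Tfr 1 in Prdm1 (25.9 CPM) with Bcl6 at 211 CPM.

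Inside single subclusters Maf and Tox kept 1 direction against the WT mean. In Tfh subclusters Bcl6, Prdm1, Ascl2, Bach2, Lef1, Pou2af1 and Tox2 had ratios on both sides of 0. Maf was above the WT mean in 7 of 7 Tfh and 5 of 5 Tfr subclusters, with log2 ratios of 0.15 to 0.62 and 0.38 to 0.74. In Tfh subcluster 6, though, Maf stood at 254, 317 and 317 CPM, with BKO not above WT run 2. Tox was below the WT mean in all 12 (from -0.58 to -0.02, the smallest of which are under the shift that TMM scaling brings). The running median of the class ratios at its intron length was -0.39 in Tfh and -0.40 in Tfr cells. Its subcluster ratios lay on both sides of that median. Tcf7 was above the WT mean in 7 of 7 Tfh subclusters, at 0.05 to 0.20. In Tfr cells Tcf7 was above the WT mean in 4 of 5 subclusters (0.11–0.49), while in Tfr 1 it stood at 150, 155 and 85.0 CPM, a ratio of -0.84. In that same subcluster Lef1 stood at -0.75, Bach2 at -0.65, Bcl6 at -0.51 and Tox2 at -0.51, and Maf at 0.52. Bach2 was at its highest in Tfh subcluster 6, at 374, 353 and 462 CPM, the one Tfh subcluster in which its ratio was above 0 (0.34). Without Tfr 1 the class ratios of Bcl6 and Tcf7 turned from -0.16 and -0.12 to 0.15 and 0.21.

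**Figure D4:**
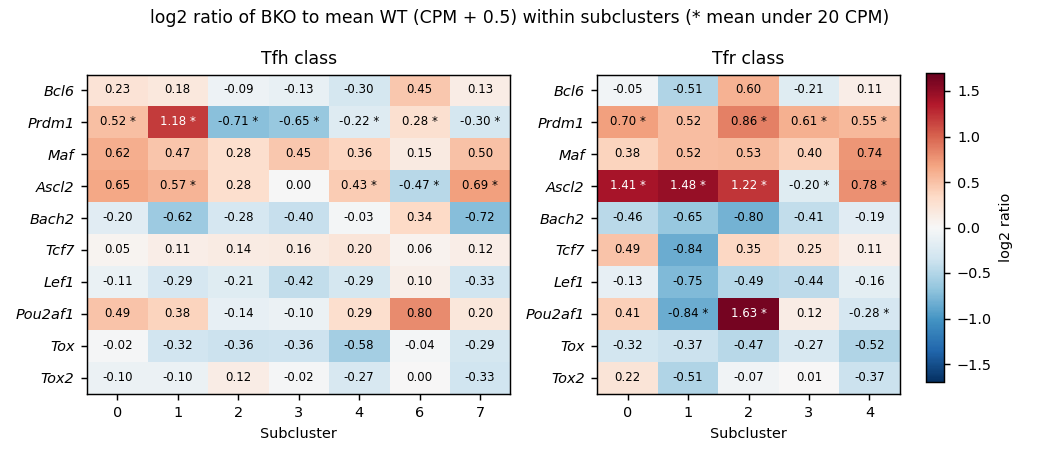
Log2 ratio of BKO to the mean of the WT runs (CPM plus 0.5) inside each subcluster with at least 50 cells in all 3 samples, Tfh on the left and Tfr on the right; red is above 0, blue below 0, and an asterisk marks a mean under 20 CPM. Maf is red and Tox blue or near 0 in every column, and Tfr subcluster 1 is the column with Tcf7 at -0.84 and Lef1 at -0.75.

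Cells with UMIs of both Bcl6 and Prdm1 were rare in each library and fewer than the product of the single shares. In Tfh cells 28 of 3727 cells (0.751%) in WT run 1, 53 of 3668 (1.44%) in WT run 2 and 58 of 6389 (0.908%) in BKO had both, where the products were 1.87%, 3.42% and 1.74%. The observed share was 0.401, 0.422 and 0.521 of the product. In Tfr cells 1.91%, 3.59% and 4.06% of cells had both, at 0.611, 0.632 and 0.455 of the product. At 2500 UMIs per cell the cells with both numbered 9, 9 and 7 in Tfh and 4, 10 and 20 in Tfr cells, so that the shares became 0.255%, 0.249% and 0.111% in Tfh and 0.290%, 0.691% and 0.983% in Tfr cells. Seen from Prdm1, 9.0%, 8.41% and 7.22% of thinned Tfh cells with a Prdm1 UMI had a Bcl6 UMI, against 29.9%, 30.6% and 31.6% of the others.

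The number of cells with both genes was also set against products taken inside subclusters. Set against the sum of the products inside each subcluster of at least 50 cells, the Tfh cells with both genes came to 0.676, 0.644 and 0.556 of it with all UMIs, closer to 1 than for the class as a whole. In Tfr cells the same ratio was 0.788, 0.844 and 0.767. In thinned cells it was 0.576, 0.492 and 0.247 in Tfh cells, beside 0.308, 0.281 and 0.231 for the class, so that BKO changed little. In thinned Tfr cells it was 0.439, 0.992 and 0.797, beside 0.264, 0.655 and 0.468, and rests on 4, 10 and 19 cells. With all UMIs, the observed number in BKO lay under the product in 7 of 7 Tfh and 5 of 5 Tfr subclusters, and in the WT runs in 8 of 9 Tfh and 3 of 5 Tfr subclusters. In thinned Tfr cells of WT run 2 it did in 2 of 5. Tfr 1 of BKO held most of the Tfr cells with both, 54 of 83, among 371 Prdm1-positive and 131 Bcl6-positive cells of 742, which is 0.824 of the product. Tfh 5 of the WT runs held 11 of 28 and 21 of 53.

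Of the 45 pairs among the 10 genes, Bcl6 with Prdm1 ranked 3, 2 and 2 from the lowest ratio in thinned Tfh cells and 3, 6 and 4 in Tfr cells, for both WT runs and then BKO. The median ratio over pairs was 1.00 to 1.02 in each class and library. Prdm1 was also below the product with Tcf7, at 0.314 to 0.462, and with Ascl2 and Pou2af1, although the pairs with Ascl2 and Pou2af1 rest on at most 6 cells per class and library. It was below the product with Bach2 (0.356–0.879), Tox2 (0.568–0.717) and Lef1 (0.572–0.922) too, so a low ratio with Prdm1 was not particular to Bcl6. Above the product stood Bcl6 with Ascl2 (1.38–2.02), Bcl6 with Pou2af1 (1.33–1.99), Bcl6 with Tox2 (1.19–1.33) and Ascl2 with Pou2af1, which had the highest ratio of the 45 in all 6 combinations of class and library (1.46–3.86). In Tfr cells Ascl2 with Pou2af1 rests on only 3, 3 and 9 cells, and Bcl6 with Ascl2 on 6, 7 and 18. The relatives Tcf7 and Lef1 stood at 1.06 to 1.14 and Tox and Tox2 at 0.998 to 1.03, the latter with a Tox UMI in 92.6% of cells or more, which leaves little room above 1.

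**Figure D5:**
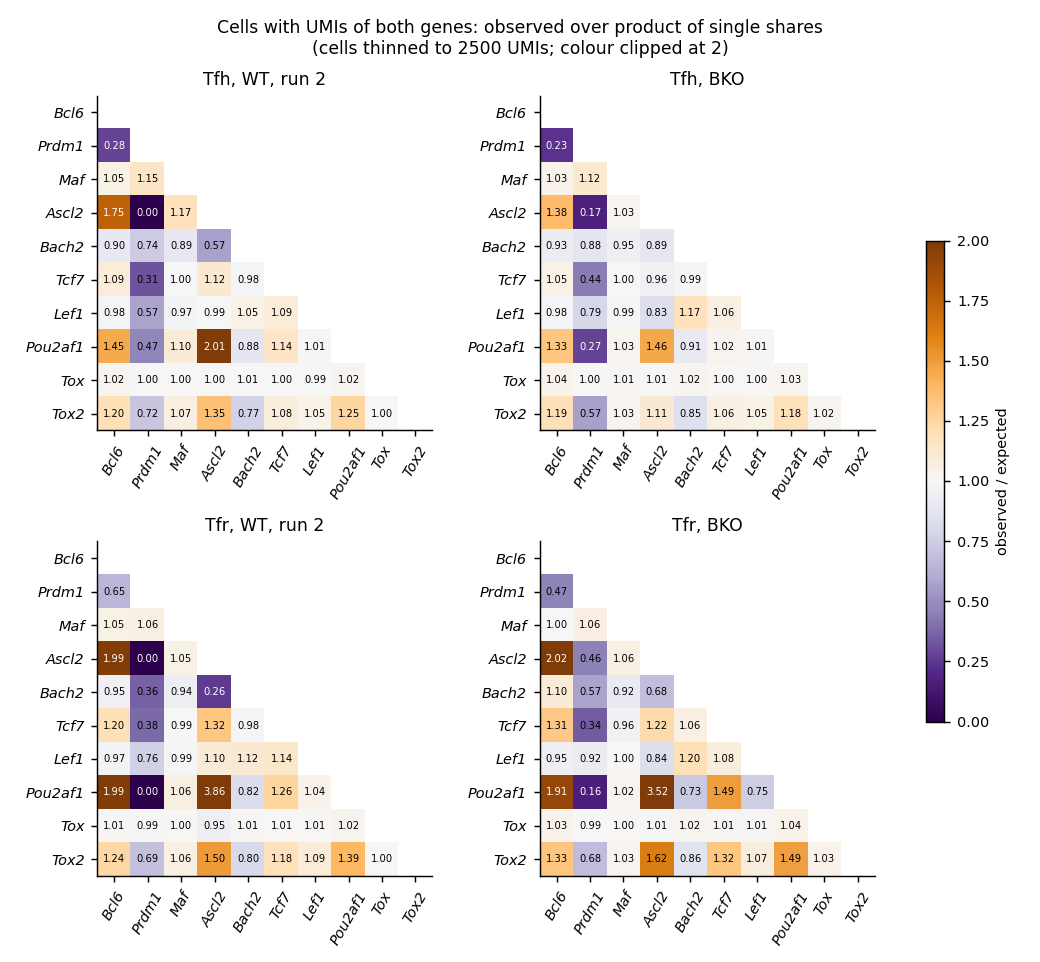
Ratio of the share of cells with UMIs of both genes to the product of the single shares, for the 45 pairs in cells thinned to 2500 UMIs; rows of panels are Tfh and Tfr, columns WT run 2 and BKO, with orange above 1 and purple below 1. The pairs of Prdm1 with Bcl6, Ascl2, Tcf7 and Pou2af1 are purple, those with Bach2, Lef1 and Tox2 are also below 1, and the Ascl2 and Pou2af1 pairs with Bcl6 are orange.

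Within each library, Tfr cells were set beside Tfh cells sorted and sequenced together. Prdm1 was the gene whose class difference varied most between genotypes: the log2 ratio of Tfr to Tfh was 0.85 and 0.70 in the WT runs and 2.88 in BKO. Ascl2 (-1.48, -1.54 and -1.54), Tcf7 (-1.12, -1.12 and -1.52) and Pou2af1 (-1.12, -1.20 and -1.25) were lower in Tfr cells of each library. Bcl6 was lower by less, at -0.46, -0.49 and -0.72. Bach2 was higher in Tfr cells, at 0.53, 0.55 and 0.29, and Tox nearly level, at 0.11, 0.09 and 0.06. Without Tfh subcluster 1 the Prdm1 ratios were 0.76, 0.66 and 3.60. Tfh subcluster 5 gave 58.4% and 57.0% of the Tfh Prdm1 UMIs in the WT runs and 1.28% in BKO. Without it Tfh cells had Prdm1 at 5.72, 6.68 and 7.08 CPM. Tfr cells without Tfr subcluster 1 had it at 8.92, 9.29 and 12.6 CPM. The part of the subcluster makeup in the class difference was not tested.

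The other genes of the network were followed in lists. Of 9 measured Bcl6 partners in repression (such as Ncor1, a corepressor, at 441, 436 and 383 CPM in Tfh cells) 0 were called in either class, with a median log2 ratio of -0.16 in Tfh and -0.21 in Tfr cells, beside -0.10 and -0.09 for all genes. With the running median over intron length taken off, the medians of these partners were 0.09 and 0.04. Of 13 measured Tfh surface and cytokine genes 0 were called in Tfh cells (median 0.16). Among them, Sh2d1a, which encodes the adaptor SAP, stood at 521, 514 and 593 CPM and Slamf6, a receptor that signals through SAP, at 611, 596 and 597 CPM. In Tfr cells Il6ra, a receptor chain for interleukin 6, was called lower (log2 ratio -0.62, among 11 measured, median -0.23), where 2.4% of all genes were. It was not called at -0.43 without Tfr subcluster 1, nor at -0.43 with the intron-length median taken off. Icos, a costimulatory receptor, stood there at 371, 385 and 524 CPM. Of 11 genes that Bcl6 is known to hold down, 3 were called lower in Tfh cells (median -0.43), where 2.45% of all genes were. Among them were Runx2 (78.6, 78.6 and 38.8 CPM) and Runx3, a factor of cytotoxic T cells (52.4, 52.0 and 16.2 CPM). In Tfr cells the median of the list was -0.21. Without Tfh subcluster 5, Runx3 stood at -0.82 in place of -1.66 and Runx2 at -0.77 in place of -1.01. Eomes, itself among the CD8 T and NK markers given above, stood at -1.73 in place of -2.55.

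Of 24 measured lineage factors outside the 10 genes, Runx2, Runx3 and Eomes, a factor of cytotoxic cells (63.6, 64.8 and 10.5 CPM), were called lower in Tfh cells. The share of all genes was 2.45% there. Runx2 and Runx3 are also in the list of genes that Bcl6 is known to hold down, so the calls of these lists overlap. In Tfr cells 1 of 22, Runx1, was called lower, beside 2.4% of all genes. Its log2 ratio was -0.61, and -0.23 with the intron-length median taken off, which ends the call. Of 9 measured genes of effector regulatory T cells with Blimp-1, 4 were called higher in Tfr cells and 0 lower, with a median of 0.54, where 0.887% of all genes were called higher and 2.4% lower. The list did not move as a whole: 5 of the 9 had a log2 ratio above 0. The rest lay below it, Il2ra (-0.45) and Klrg1 (-0.40) among them. Lag3, an inhibitory receptor, stood at 49.3, 47.5 and 118 CPM, Ctla4, which takes up costimulatory ligands, at 357, 355 and 615 CPM, and Tigit, another inhibitory receptor, at 44.2, 48.9 and 77.1 CPM. Capg, an actin-capping protein, was the fourth, at 211, 184 and 317 CPM. Without Tfr subcluster 1 only Lag3 of these 4 was called higher (0.97), and Klrg1 and Il2ra, not called with all subclusters, were called lower at -0.86 and -0.70. In Tfh cells 0 of 6 measured genes of this list were called.

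The genes most like Bcl6 over the 10 combinations of class and subcluster with at least 100 cells in WT run 2 and in BKO were taken from 5898 genes, by Pearson's r of log2(CPM + 1) in each library apart. They were Cxxc5 (r = 0.956 in WT run 2 and 0.982 in BKO), Cd160 (0.875 and 0.933) and Fas (0.965 and 0.863). For Prdm1 they were Rac1 (0.911 and 0.909), Neb (0.897 and 0.971) and Arl5a (0.877 and 0.889). Between the members, Bcl6 and Prdm1 stood at -0.64 and -0.63, Bcl6 and Tox2 at 0.85 and 0.86, and Prdm1 and Tcf7 at -0.67 and -0.88. The points of a library share its depth and its cells, so these values describe 10 points each.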

How the data were processed

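Deposited were raw UMI counts per gene and barcode, made by the authors with Cell Ranger 7.0.1 for both WT samples and Cell Ranger 4 for BKO per the file headers, on mm10 per the submitters' processing notes, and tables of annotated cells with class and subcluster (resolution 0.3, per the column names). Cells of the tables were matched to samples by barcode. The table UMI counts of WT run 2 are lower than in its matrix, and the matrix was used. The WT matrices hold called cells, and that of BKO holds 1275404 barcodes, of which annotated cells were kept. The sources used here do not state a treatment of doublets, and they were not called again.

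UMIs were summed per library and class and scaled to CPM. The design written at the outset allowed for a count model if the WT samples were separate. They hold the same cells, so the size rule described with the results took its place. The code was tested on simulated counts with counting noise alone, which hold no variation between libraries and so say nothing of false calls with 1 library per genotype. Intervals are Poisson for CPM and Clopper-Pearson for shares. Gene models, found for 99.8% of features, are GENCODE vM21. The running median spans 301 genes. Named are the 10 genes, genes of 5 lists that were called or among their 3 highest in CPM, and the 3 genes most like Bcl6 and Prdm1. Single values of some list and marker genes are not reported here. Members, lists and tests were chosen with earlier results of these data known, and leaving out Tfh subcluster 5 or Tfr subcluster 1 was chosen after seeing these. Tools were Python 3.11.15, numpy 2.4.6, pandas 2.3.3, scipy 1.17.1, and edgeR 4.0.16 for TMM only.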

Additional observations from a re-analysis of the deposited data

Results flagged for a closer look

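In 3 of the 10 genes BKO lay on one side of both WT runs in Tfh cells and on the other side in Tfr cells. How many of all measured genes do the same was not counted, so these 3 cannot be read as a trait of the list. With 1 library per genotype the difference between the classes was not tested. For Prdm1 the log2 ratio of BKO to WT was -0.84 in Tfh and 1.26 in Tfr cells, a difference of 2.10. The Tfh value was 0.18 without Tfh subcluster 5 and 0.60 with the WT makeup of subclusters, which also leaves out Tfh subcluster 5. For Tcf7 the ratios were 0.28 and -0.12, a difference of -0.40, and without Tfr subcluster 1 the Tfr value was 0.21. With all subclusters and TMM scaling the Tfr value of Tcf7 was -0.005. Its Tfr counting intervals in BKO (218–233 CPM) and WT run 1 (232–253 CPM) overlap. For Bcl6 the ratios were 0.09 and -0.16, a difference of -0.25. The counting interval of Bcl6 in BKO overlaps that of WT run 2 in Tfh cells and that of WT run 1 in Tfr cells. Without Tfr subcluster 1 the Tfr value of Bcl6 was 0.15, and without Tfh subcluster 5 its Tfh value was -0.02.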

How the results depend on the processing

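No paired analysis was possible because both WT samples hold 1 set of cells and BKO has 1 sample. Of all genes, 26 were called higher and 161 lower in Tfh cells. In Tfr cells the numbers were 58 and 157. With TMM scaling these became 63 and 83 in Tfh and 104 and 74 in Tfr cells, with no minimum of CPM 2207 and 3753, and 2172 and 3364, and at a threshold of 2-fold 2 and 41, and 8 and 14. With the running median over intron length taken off, the genes called lower became 86 in Tfh and 47 in Tfr cells, and with BKO weighted by the WT makeup 46 in Tfh, and 25 higher and 47 lower in Tfr cells. Without either WT run in turn, 31 to 55 genes were called higher in Tfh and 74 to 92 in Tfr cells, the larger number in both cases without run 2.

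Of the 10 genes, 1 was called higher in Tfh cells and 0 with WT cells of 1 class in both runs, the intron median taken off, thinning, the WT makeup, cells with a B or plasma cell UMI left out, Tfh subcluster 5 left out, or 2-fold. The count called lower in Tfh cells was 0, between 0 and 1 without either WT run, and 1 with cells of a B or plasma cell UMI left out, without Tfh subcluster 5 (Bach2 in each) or with no minimum of CPM (Prdm1). In Tfr cells 1 was called higher, 1 to 2 without either run, 2 with TMM (also Maf) or no minimum (also Ascl2), and 0 with the WT makeup or without Tfr subcluster 1. The 1 called lower became 0 with the intron median taken off, the WT makeup or 2-fold. The share of cells with both Bcl6 and Prdm1 became, after thinning, 0.255%, 0.249% and 0.111% in Tfh and 0.290%, 0.691% and 0.983% in Tfr cells (both WT runs, then BKO), where fewer UMIs per cell lower each single share. For the other settings that moved a count the cause was not tested. No call changed direction. At this depth Prdm1, Ascl2 and their pairs rest on few UMIs, and differences under the run-to-run gap of the same WT cells, as for Maf, cannot be read.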

Other observations

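Transcripts of all 10 genes were also found outside cells. In the BKO matrix, 907649 barcodes with 1 to 50 UMIs held 1686503 UMIs in all. Bcl6 stood there at 177 CPM, against 164 CPM in the annotated BKO cells, Prdm1 at 17.8 against 19.8 CPM, Ascl2 at 25.5 against 22.5 CPM and Pou2af1 at 60.5 against 57.9 CPM. Tox (1572 against 2321 CPM), Maf (887 against 1263 CPM) and Lef1 (167 against 237 CPM) were lower there than in cells. The matrices of the WT runs hold called cells, so no such value is given for them.

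Pou2af1 differed by whether a cell also had a UMI of a B cell or plasma cell marker. Such cells made up 3.76%, 5.83% and 6.53% of Tfh cells in WT run 1, WT run 2 and BKO, and 27.1%, 33.6% and 42.7% of them had a Pou2af1 UMI, against 18.6%, 25.9% and 28.1% of the other Tfh cells. They were also deeper, with medians of 6921 against 6203 UMIs in BKO, and Bcl6 was detected in more of them too, in 63.8% against 51.7% in BKO. With these cells left out, the Tfh log2 ratio of Pou2af1 between BKO and WT was 0.25 in place of 0.29. The part of free RNA or of attached B cells in this was not tested.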
